A study of Mus musculus with 2 samples.

Results

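The AP-1 and early growth response genes comprise 10 genes: Fos, Fosb, Fosl2, Jun, Junb, Jund, Atf3, Egr1, Egr2 and Egr3. They were chosen by name, as every probe set whose gene symbol in the platform annotation is one of these, which gave 12 of the 22690 probe sets on the array and 10 of 12393 named genes. Jun and Egr2 had 2 probe sets each and the other 8 genes had 1. The RNA was total RNA of the back skin of 10-day-old mice, with 1 array of transgenic animals (titled K14Ahr) whose keratinocytes express the aryl hydrocarbon receptor (AhR) in a constitutive active form and 1 array of their non-transgenic, wild-type littermates. AhR is a transcription factor that is normally switched on by dioxins and related aromatic ligands. The comparison asks which skin transcripts differ when AhR is active in the epidermis without a ligand. The labels give no strain, sex or transgene line for either group, and whether the RNA on an array came from 1 animal or several is not stated. With 1 array per genotype there is no replicate error and no test, so every difference below compares these 2 arrays and not the genotypes.

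AP-1 is a dimeric transcription factor built from basic leucine zipper proteins of the Jun, Fos and ATF families. Fos proteins typically bind DNA as partners of a Jun protein, whereas Jun proteins also pair with each other. The Egr proteins are zinc finger factors that bind GC-rich promoters. Many genes of both groups are immediate early genes, transcribed within minutes of a growth factor, cytokine or injury signal through MAP kinases and serum response factor, and their RNAs are short-lived. In the epidermis AP-1 subunits are present in different layers and control genes of differentiation, wound repair and inflammation.

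Fos was the one measured gene of the group that differed by 2-fold or more. It was 2.09-fold higher on the transgenic array, while its dimer partners Jun, Junb and Jund, the other Fos genes and Egr1 read nearly the same on both arrays. Egr3 was the lowest member, at 1.42-fold lower. Atf3 was not above the signal floor on either array. Of the 9 measured members, 1 was at least 2-fold higher and 0 were lower by that much. The shares among all 8894 measured genes were 2.27% higher and 1.09% lower, 3.36% in either direction. With 9 genes, a count of 1 is the smallest that can lie above that background. A gene counts as measured when the signal of its brightest probe set lies above a floor of 34.7, the 40th percentile of all signals, on at least 1 array. The members' median log2 ratio, with the transgenic signal over the wild-type signal, was 0.09, and 0.06 over the 8 measured members other than Fos, beside -0.05 over all measured genes. Above 0 lay 6 of the 9 members, and 43.6% of all measured genes.

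**Figure D1:**
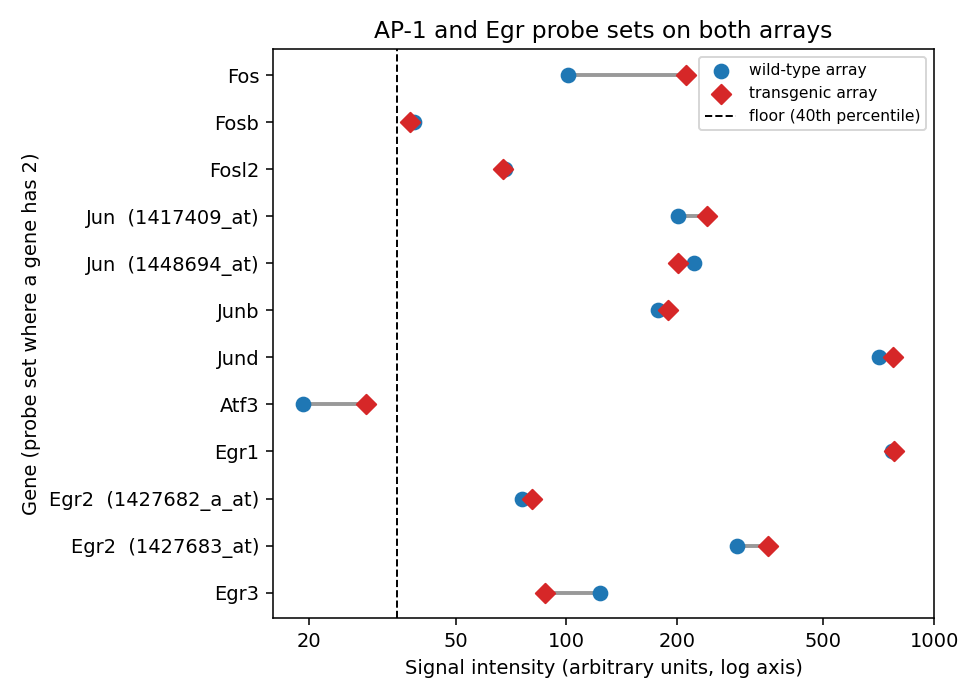
Signal intensity (arbitrary units, log axis) of the 12 probe sets on the wild-type array (circles) and its transgenic counterpart (diamonds), with 1 point per array and the floor as a dashed line. The Fos points stand apart at 101 and 212, those of Egr3 lie in the opposite order at 124 and 87.4, both Atf3 points lie left of the floor, and most other pairs nearly touch.

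Fos encodes c-Fos, the most widely studied Fos protein. Its probe set read 212 on the transgenic and 101 on the wild-type array, so the transgenic signal was the higher, and both lay well above the floor. The log2 ratio was 1.06, which placed Fos at rank 175 from the top of the 8894 measured genes, with 1.96% of them higher. Among the 2330 measured genes whose mean log2 signal was within 0.5 of that of Fos, 2.49% were at least 2-fold higher. Fos has a single probe set on this array, so its ratio has no second reading. When a pseudocount of 16 replaced the floor, the log2 ratio was 0.96, just under the 2-fold limit.

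The other Fos genes were close to equality. Fosb, whose product FosB is a strong activator in AP-1 dimers, read 37.7 on the transgenic and 38.6 on the wild-type array, a log2 ratio of -0.03. Both signals lay just above the floor. Fosl2 encodes Fra-2, a Fos-related protein that lacks the strong activation domain of c-Fos and is found in differentiating keratinocytes. It read 67.4 and 68.3, a log2 ratio of -0.02. The sign of neither gene is settled, since median and lowess centring put both above 0, and quantile normalization put Fosl2 above 0 and Fosb at 0. Fosl1, which encodes Fra-1 and completes the Fos family, is not among the 10 genes. By its brighter probe set it read 68.8 on the transgenic and 42.8 on the wild-type array (log2 ratio 0.68), and the second probe set read 7.20 and 4.20, under the floor.

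The Jun genes showed small differences. Jun, the gene of c-Jun, the usual partner of c-Fos, was the one member whose probe sets differed in direction. The brighter probe set read 241 on the transgenic and 201 on the wild-type array (log2 ratio 0.26), and the dimmer one read 201 and 222 (log2 ratio -0.14). The transgenic signal was thus the higher by the first and the lower by the second, and their mean was 0.06. Junb encodes a subunit that often acts against c-Jun in growth control and restrains cytokine production in keratinocytes. It read 189 and 177, a log2 ratio of 0.09. Jund, the most constitutively expressed Jun gene, read 774 and 706, a log2 ratio of 0.13.

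Atf3, a stress-induced gene whose product pairs with Jun proteins and often represses, read 28.5 on the transgenic and 19.2 on the wild-type array. Both values lay below the floor, so no fold is given at that floor. With the floor lowered to the 20th percentile, 11.9, both signals were measured and the log2 ratio was 0.57.

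The early growth response genes differed in direction. Egr1, a classical serum-induced gene, read 780 on the transgenic and 766 on the wild-type array. Its log2 ratio was 0.03, and -0.06 with quantile normalization, so its direction is not settled. Egr2, also known as Krox20, is expressed in the hair follicle and in Schwann cells. Its brighter probe set read 353 and 291 (log2 ratio 0.28), and the dimmer one 80.5 and 75.8 (log2 ratio 0.09). Both put the transgenic array higher, by less than 1.5-fold. Egr3, a relative induced by many of the signals that induce Egr1, read 87.4 on the transgenic and 124 on the wild-type array, a log2 ratio of -0.50. Of all measured genes 9.11% were lower. Its log2 ratio lay between -0.50 and -0.42 under the 9 alternative scalings, floors and probe set rules, but it too has 1 probe set. Both its signals lay above every floor used, so the other floors and probe set rules could not change its ratio.

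The agreement between probe sets of a gene is the only repeat measure in these data. It shows the spread between probe sets read on the same arrays, not the spread between arrays or between animals. In 1764 genes exactly 2 probe sets exceeded the floor on each array, and their log2 ratios differed by a median of 0.22, and by 0.62 at the 90th percentile. This corresponds to an SD of 0.26 for a single probe set. The probe sets of Jun lay 0.40 apart and those of Egr2 0.19 apart. In 24.6% of the 1764 genes the probe sets lay at least as far apart as those of Jun. Of the 9 members, Fos (1.06) and Egr3 (-0.50) lay beyond this SD. Egr2 (0.28) was just past it and Jun (0.26) just within it. The log2 ratios of the other 5 measured members were all nearer to 0.

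**Figure D2:**
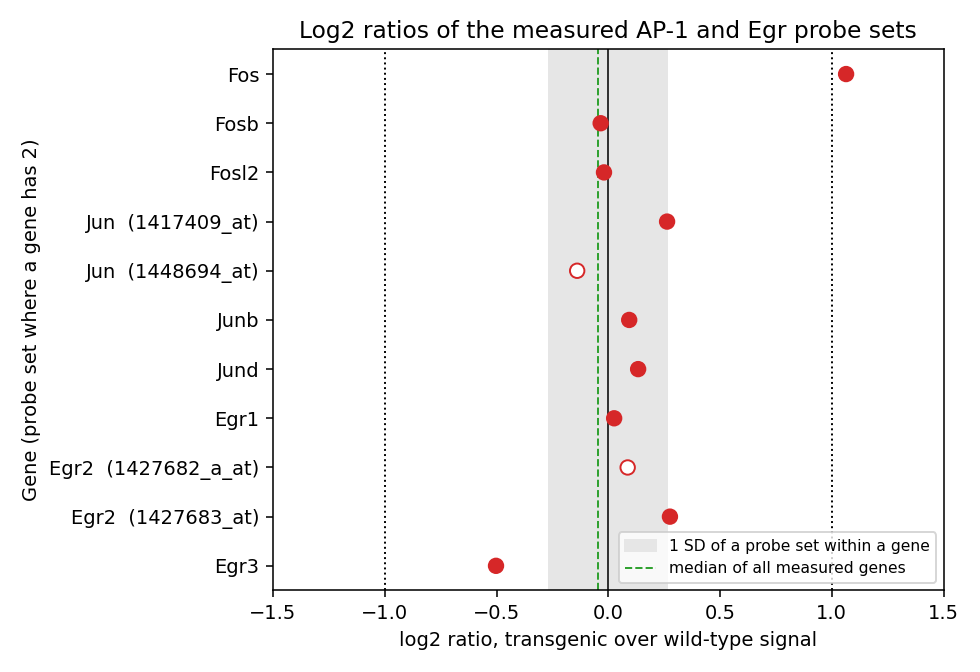
Log2 ratio (transgenic signal over wild-type signal) for the 11 measured probe sets, with filled points for the probe set that represents its gene and open points for a second one. The grey band is 1 SD of a probe set within a gene (0.26 either side of 0), dotted lines mark 2-fold and the dashed line the median of all measured genes (-0.05). Fos at 1.06 is the one point beyond 2-fold, Egr3 at -0.50 is the lowest, and the probe sets of Jun lie on both sides of 0.

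The promoters of Fos, Jun and Junb are shown because these 3 genes encode partners in the same dimers. Of them only Fos differed by 2-fold or more. The letters are the 250 bases before the start site in RefSeq for the mouse build GRCm38.p6, 5′ to 3′ on the gene's strand. The Fos stretch lies at chr12:85473640-85473889 on the plus strand, that of Jun at chr4:95052223-95052472 on the minus strand and that of Junb at chr8:84978749-84978998 on the minus strand. Capitals mark GCGTG, the core of the xenobiotic response element that AhR binds with its partner ARNT, and TGACG, the core of the cyclic AMP response element that ATF, CREB and Jun proteins bind. Both motifs were searched on both strands, so that CACGC and CGTCA are the same motifs on the other strand.
Fos: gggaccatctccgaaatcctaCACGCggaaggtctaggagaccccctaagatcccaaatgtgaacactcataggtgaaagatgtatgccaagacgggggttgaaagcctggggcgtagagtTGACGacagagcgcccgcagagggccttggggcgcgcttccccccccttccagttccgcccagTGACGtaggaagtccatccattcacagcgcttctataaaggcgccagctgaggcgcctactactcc
Jun: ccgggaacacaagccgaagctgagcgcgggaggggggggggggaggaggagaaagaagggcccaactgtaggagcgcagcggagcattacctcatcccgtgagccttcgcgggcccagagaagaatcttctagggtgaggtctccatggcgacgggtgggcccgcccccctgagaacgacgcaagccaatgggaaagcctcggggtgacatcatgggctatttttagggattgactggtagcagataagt
Junb: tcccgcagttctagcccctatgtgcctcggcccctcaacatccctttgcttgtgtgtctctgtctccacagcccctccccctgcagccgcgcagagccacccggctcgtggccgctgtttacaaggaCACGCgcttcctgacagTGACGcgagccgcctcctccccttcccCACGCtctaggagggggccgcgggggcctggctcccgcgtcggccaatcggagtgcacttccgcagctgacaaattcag

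In this stretch Fos held 1 GCGTG core, 229 bases upstream of the start, and 2 TGACG cores, 129 and 66 bases upstream. Junb, with a log2 ratio of 0.09, held 2 GCGTG cores and 1 TGACG core, and Jun held neither. A TATAAA box began 33 bases upstream of the listed start in Fos but at base 1 of the listed transcript in Junb. The listed start of Junb may therefore lie upstream of its main one, and its core counts refer to the listed start. Across the 300-base windows from 250 bases before to 50 after the start, 8 of the 10 genes had an entry, and Egr1 and Egr3 had none. A gene is counted when any of its windows holds the motif, and the 8 genes had 12 windows. Shares are of all 27025 genes with a window, counted the same way. GCGTG was found for 4 of these 8 (Fos, Fosb, Junb and Atf3) and for 35.2% of all genes. TGACG was found for 5 (Fos, Fosb, Junb, Atf3 and Egr2) and for 23.0% of all genes. A CArG box, the site of serum response factor, was found for 1 gene, Egr2, and for 1.81% of all genes. Bases more than 250 upstream of the start were not searched. Fos or another gene without a hit may therefore hold a site farther upstream. The AP-1 site in the form TGANTCA was found for 0 of the 8 and for 8.97% of all genes. Longer forms were not searched, such as TGACATCA, letters that the Jun stretch holds. The Egr site GCGTGGGCG, which contains GCGTG, was found for 0 and for 0.71%. Such short matches are a description of the letters and not evidence of binding.

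Other genes of the pathway were taken from 6 lists of 136 genes, chosen with earlier results of these data known. Among all measured genes 2.27% were at least 2-fold higher, 1.09% at least 2-fold lower, and 43.6% lay above 0. Among the AP-1 partners and Egr corepressors, 0 of 15 measured genes were at least 2-fold higher or lower, with a median log2 ratio of 0.02. Fosl1 was the highest. Maff, a small Maf protein that pairs with other zipper proteins, had a log2 ratio of at least 0.31, with the wild-type signal below the floor. At the other end lay Atf2, a Jun partner activated by stress kinases (-0.46), and Crem, a cyclic AMP response factor, whose transgenic signal lay below the floor (at most -0.28). The other 3 probe sets of Atf2 ran from -0.67 to -0.01. Nab1 (-0.02) and Nab2 (-0.24), which bind Egr proteins and repress their activity, and Egr4 (0.29), the remaining Egr gene, were chosen for naming after their values were seen.

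Among other immediate early genes, 2 of 31 measured genes were higher by 2-fold or more and 0 were lower by that much. The median was 0.20, and 21 genes lay above 0. Cebpd, a zipper factor of the acute-phase response, read 213 on the transgenic and 70.7 on the wild-type array, 3.01-fold higher, and its second probe set gave a log2 ratio of 0.83. Socs3, an inhibitor of cytokine signalling through STAT3, was at least 2.12-fold higher by its brightest probe set (73.5, with the wild-type array under the floor), while its other probe sets gave 0.76 and at least 0.63. Plk3, a stress-responsive kinase, was lowest with 129 against 243, a log2 ratio of -0.91. Ppp1r15a, which reverses the translation block of the integrated stress response, had a log2 ratio of -0.59. Nr4a1 (0.22) and Myc (0.29), growth-factor-induced genes that were named after their values were seen, lay near the median of the list.

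Signalling genes that act upstream of Fos and Egr transcription, and their feedback inhibitors, stayed within 2-fold. Of 19 measured upstream kinases and SRF factors 0 were at least 2-fold higher or lower, and the median was 0.08. Elk3, a partner of serum response factor, had a log2 ratio of 0.53 by its brightest probe set, while the others had a wild-type signal under the floor and gave bounds of 0.50 and 0.01. Map2k2, an ERK-activating kinase, had a log2 ratio of 0.45 by the brighter of its probe sets and -0.19 by the dimmer. Map3k5, a stress-activated kinase, was at -0.66 and Rps6ka3, a kinase downstream of ERK, at -0.36. Of 12 measured MAPK feedback inhibitors 0 were at least 2-fold higher or lower and the median was 0.02, with 6 above and 6 below 0. Dusp7 was at 0.84 by its brightest probe set and at 0.22 and 0.23 by the others. Dusp1, a phosphatase gene that is itself immediate early, read 152 against 97.1 (0.65). Dusp14 read 874 against 1591 (-0.86) and Dusp16 was at -0.42.

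Known AP-1 target genes gave the highest of the 6 medians, 0.38. Of 16 measured genes 12 lay above 0, 1 of them (Ccl2) as a bound. By 2-fold or more 1 was higher and 0 were lower. Among all measured genes 43.6% lay above 0 and 2.27% were at least 2-fold higher. The median ran from 0.24 to 0.50 over the alternatives. Timp1, an inhibitor of metalloproteases, read 179 on the transgenic and 40.9 on the wild-type array, 4.38-fold higher. Hbegf, a ligand of the epidermal growth factor receptor, read 135 and 70.3, a log2 ratio of 0.94, and its second probe set gave 0.78. Odc1, the first enzyme of polyamine synthesis, was at -0.55 by its brightest probe set and at -0.59 and -0.16 by the others. Hmox1, a heme-degrading enzyme, was at -0.53. These genes respond to many other factors too, and the members' part in their levels was not tested.

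**Figure D3:**
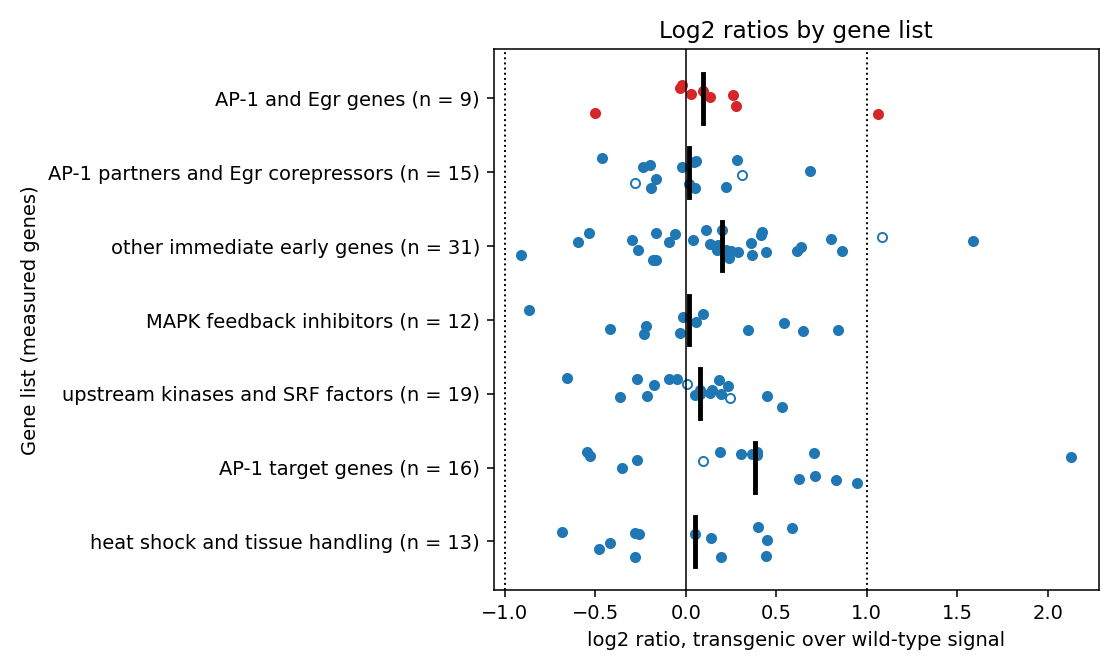
Log2 ratio (transgenic signal over wild-type signal) for each measured gene of the AP-1 and Egr genes (top row) and of the 6 lists, with the median of each as a black bar. Open points are bounds, with 1 array below the floor, and dotted lines mark 2-fold. The medians run from 0.02 to 0.38, and 4 genes lie beyond 2-fold: Fos, Cebpd, Socs3 and Timp1.

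Immediate early genes also respond to how tissue is taken. The part of tissue handling in the difference of Fos or Egr3 was not tested. With 1 array per genotype, handling and genotype cannot be told apart. Heat shock and other handling-responsive genes had a median log2 ratio of 0.05 over 13 measured genes, with 0 at least 2-fold higher or lower, but of -0.03 with quantile normalization, -0.15 with the mean over probe sets and -0.12 without probe sets whose name carries a suffix. Ddit4 (0.59) and Dnajb1 (0.45) were highest, Bag3 (-0.68) and Dnaja1 (-0.48) lowest. The 3′ to 5′ signal ratio, a measure of RNA integrity, was 0.776 on the transgenic and 0.804 on the wild-type array for Gapdh, and 1.35 and 1.27 for Actb.

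Several lists of cell type markers differed between the arrays. The background for their counts is the 8894 measured genes, of which 2.27% passed the 2-fold limit upwards and 1.09% downwards. In a list of 9 or 10 genes, a count of 1 is the smallest that can exceed these shares. Of 11 measured macrophage markers 8 were at least 2-fold higher, with a summed signal over 12 genes of 2771 on the transgenic and 937 on the wild-type array. Granulocyte markers summed to 1889 and 735 over 9 genes, and 3 of 8 measured were at least 2-fold higher. S100a8 and S100a9, which keratinocytes can also express, made up 1341 and 425 of these sums, the other 7 genes summed to 548 and 311, and Mpo had a log2 ratio of 0.01. Mast cell markers summed to 945 and 574 over 8 genes, with 2 of 6 measured at least 2-fold higher. The mast cell markers went both ways, with 4 of the 6 above a log2 ratio of 0 and 2 below. The 2 below were Kit (-0.46) and Ms4a2 (-0.15). Keratinocyte markers went both ways. Suprabasal markers summed to 14794 and 5721 over 9 genes, of which 4 were higher and 1 lower by 2-fold or more, Ivl at 2.83-fold. Basal markers summed to 8279 and 6095 over 9 genes, of which 1 was higher and 1 lower by that much, Krt15 at 2.69-fold. Melanocyte markers summed to 1366 and 2650 over 6 genes, hair follicle markers to 22373 and 26556 over 11 and skeletal muscle markers to 5198 and 6687 over 10. At least 2-fold lower were 3 of 6, 0 of 11 and 1 of 10 of these. Fibroblast markers had a median log2 ratio of 0.40, with 7 of 9 above 0 and 1 at least 2-fold higher. Their summed signal was 10102 on the transgenic and 10354 on the wild-type array. The medians of the endothelial, smooth muscle, adipocyte and erythroid lists lay between -0.19 and 0.22. No marker of T cells was above the floor on either array (0 of 6). The lowest marker signal in any list was 1.30, that of the mast cell gene Hdc on the wild-type array. The part of these cells in the difference of Fos or Egr3 was not tested. In RNA of whole skin, fewer cells of a type and less RNA per cell cannot be told apart. Krt14 and Krt1, defining keratins of the epidermis, read 3328 and 2992 on the transgenic and 1987 and 489 on the wild-type array, so both arrays carried epidermal RNA. The AhR target Cyp1a1 read 1802 on the transgenic and 40.8 on the wild-type array and Cyp1b1 847 and 214, in the direction that the labels imply. Ahr itself read 136 and 109, and whether its probe sets detect the transgene is not known here.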

How the data were processed

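Biotin-labelled total RNA was measured on 1-colour arrays, per the labels. Each deposited value is the intensity of a probe set on a linear scale, from 0 to 4995. The authors had scaled both arrays, since the 2% trimmed mean of each was 100.03. The software was not given in the sources used here. Detection calls and scanner files were not used. Of 22690 probe sets 64 were controls. Of the rest, 20380 had 1 gene in the platform annotation, 691 had several and 1555 had none; only those with 1 gene were named, with symbols updated through RefSeq for GRCm38.p6.

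Signals were scaled to equal trimmed means, raised to the floor of 34.7 (above it lay 59.7% and 60.2% of probe sets) and put on the log2 scale. The probe set of highest summed signal stood for its gene, which was called at a 2-fold difference. A ratio with 1 array at the floor is a bound, and list medians count such genes at their bound. No test was possible, and precision is limited by the number of arrays.

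Members and lists were chosen with earlier results of these data known. All members are named, and the 2 highest and 2 lowest measured genes of each pathway list; exceptions are stated where they occur. Cell type markers are given by counts and sums, with those named chosen after their values were seen. Scripts were tested on simulated data. Alternatives were other scalings, floors, a pseudocount of 16, other probe set rules and other call limits. Python 3.11.15, pandas 2.3.3 and statsmodels 0.14.6 were used.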

Additional observations from a re-analysis of the deposited data

How the results depend on the processing

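The members' median log2 ratio lay between 0.06 and 0.14 under all 9 alternative scalings, floors and probe set rules. The number of members at least 2-fold higher was 0 with the pseudocount of 16, where Fos was at 0.96, and 0 at a limit of 3-fold; it was 1 under the other 9 alternatives. No member was at least 2-fold lower under any of the 11. Of 9 measured members, 7 were measured when the floor stood at the 60th percentile (70.7), all but Fosb and Fosl2, and 10 genes when it stood at the 20th.

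Counts over all measured genes moved with the floor and limit, and the floor also changed how many genes were measured. Of 8894 measured genes 202 were higher and 97 lower. These became 393 and 257 of 10893 at the lower floor and 123 and 45 of 6352 at the higher. Of the same 8894 genes, 605 were higher and 567 lower at 1.5-fold, and 61 and 9 at 3-fold. Among other immediate early genes the count higher was 1 in place of 2 with the higher floor, with the mean over probe sets, without suffixed probe sets and at 3-fold, and 6 at 1.5-fold. Among AP-1 target genes it was 2 in place of 1 with lowess centring, with the mean over probe sets and with the lower floor, and 6 at 1.5-fold. AP-1 partners gave 1 higher with the lower floor and at 1.5-fold. At 1.5-fold 2 feedback inhibitors were higher and 1 lower, 1 upstream kinase was lower, 1 heat shock gene was higher and 1 lower, and 2 immediate early genes were lower. The median of AP-1 target genes was 0.24 with the mean over probe sets and 0.50 without suffixed probe sets. The cause of these shifts was not tested, and the absence of replicates limits all of them. No paired analysis was possible because each genotype has 1 array.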
